A study of Mus musculus with 6 samples.

Results

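Genes that ERK signalling switches on, 4 of which (Dusp4, Dusp6, Spry2 and Spry4) encode proteins that restrain it in turn, were compared in colonic epithelial cells of re-fed mice with and without antibiotics. The 10 genes are Dusp4, Dusp6, Spry2, Spry4, Etv4, Etv5, Fos, Fosl1, Egr1 and Phlda1. They were chosen by name, with earlier results of these data known, so counts among them beside shares of all genes are a description. Each is represented by the probe set that names it alone and has the highest mean over all 6 arrays. All 10 had such a probe set, among 19938 genes that did, and all 10 lay above the floor for dim signal, among 12071 genes tested. The arrays measured RNA of EpCAM+CD45- cells sorted from the colon of male wild-type BALB/c mice, 6 weeks old, that had starved for 36 h and eaten again for 24 h. In 1 group of 3 samples the mice received no treatment (re-fed), and in the other group of 3 they were given antibiotics during re-feeding. The labels name neither the antibiotics nor the number of mice behind a sample, and all samples share the fast and the re-feeding, so no value stands for mice that had not fasted.

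ERK is the last kinase of a cascade that runs from receptor tyrosine kinases through Ras, Raf and MEK, and in the intestinal crypt it carries the growth signal of EGF-type ligands. Within minutes of its activation, immediate-early genes such as Fos and Egr1 are transcribed, and a second wave brings proteins that restrain the cascade, among them dual-specificity phosphatases and Sprouty proteins. Because these transcripts are short-lived, their levels are often read as a measure of recent ERK output. Immediate-early genes also respond to handling, and cells here were dissociated and sorted before RNA was extracted.

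None of the 10 genes differed between the groups beyond the spread between arrays after correction. At a Benjamini-Hochberg adjusted p under 0.05 in limma, 0 of 10 passed, where 0.0580% of all genes tested did. At an unadjusted p under 0.05 there were 4 of 10, Dusp4 and Spry4 lower and Etv4 and Fosl1 higher with antibiotics, where 12.6% of all genes tested had such a p (7.32% lower and 5.30% higher). The same 4 were the members whose 3 arrays with antibiotics did not overlap the 3 without, a separation shown by 19.6% of all genes tested (10.7% lower and 8.88% higher). With array weights, which let arrays that depart from the rest count less, Dusp4 passed (adjusted p = 0.0198) and the other 9 did not. In that fit 1169 of all 12071 genes tested passed. The differences went both ways, 4 above 0 and 6 below, with a median of -0.086 beside 0.0033 for all genes tested. All values below are log2 expression after quantile normalisation, and all differences are log2 differences, antibiotics minus re-fed. Where 3 values stand for a group, they are those of its replicates 1, 2 and 3.

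**Figure D1:**
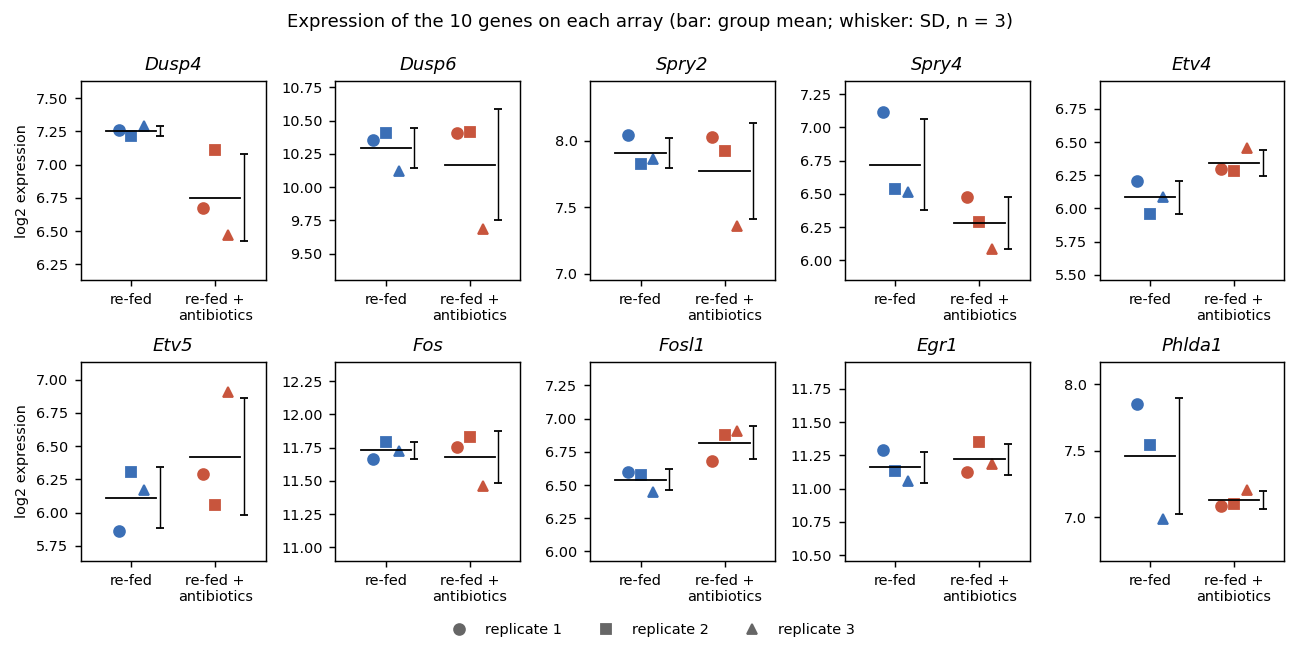
Log2 expression of each of the 10 genes (vertical axis, 1.5 log2 units in every panel) on the 3 re-fed arrays (blue) and the 3 arrays with antibiotics (red). Symbols mark the replicate number, bars the group mean and whiskers the SD. Only Dusp4, Spry4, Etv4 and Fosl1 show groups that do not overlap, and antibiotics replicate 3 is the lowest array for Dusp4, Dusp6, Spry2, Spry4 and Fos.

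The 6 arrays were not equally alike, which touches every value below. The deposited medians ran from 5.63 to 6.17. Re-fed replicates 2 and 3 shared 372 to 435 identical values with antibiotics replicates 1 and 2 and with each other, and so did the latter pair. These 4 arrays are called the common run, a grouping taken from the values and not from a label. Re-fed replicate 1 shared at most 198 values with any array, and antibiotics replicate 3 at most 67. The last count cannot be set beside the others, because that array holds 10829 distinct values and the other 5 hold 34568 to 34596. Antibiotics replicate 3 was the lowest or the highest of the 6 arrays in 48.8% of all genes tested, and in 8 of the 10 genes here. For the members and most other named genes, differences are also given over the 4 arrays of the common run, where 0.447% of all genes tested passed and 0 of the 10 did, with 2 of the 10 (Dusp4 and Etv4) at an unadjusted p under 0.05, as for 17.4% of all genes tested. The cells bore the marks of epithelium on all arrays. Epcam, the protein used in the sort, stood between 12.08 and 12.29, and all 12 genes listed for epithelium, some of them intestinal, lay above the floor of 5.81. Of these 12 none passed, and 10 lay below 0 and 2 above with antibiotics (median -0.11). Groups did not overlap for 19.6% of all genes tested and for 6 of the 12, 5 of them lower. An unadjusted p under 0.05 was found for 12.6% of all genes tested and, of the 12, for 3 lower and 1 higher. Those 4, named after their values were seen, were the keratins Krt18 and Krt20 and the intestinal transcription factors Cdx2 and Cdx1. Krt18 stood at 12.15, 12.11 and 12.19 without and at 11.58, 11.54 and 11.57 with antibiotics, a gap wider than the spread within either group (-0.59, SE 0.094, adjusted p = 0.0692, and -0.59 in the common run). Krt20 differed by -0.46 (adjusted p = 0.203), Cdx2 by -0.32 (adjusted p = 0.301) and Cdx1 by 0.33 (adjusted p = 0.320). The part of these shifts in the values of the 10 genes was not tested. Ptprc, which encodes CD45, stood between 5.30 and 5.54, below it, on all 6 arrays.

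The dual-specificity phosphatases of this set take phosphate off ERK and so end its activity. DUSP4 does this in the nucleus and DUSP6 in the cytoplasm. Dusp4 stood at 7.26, 7.22 and 7.29 on the re-fed arrays and at 6.67, 7.11 and 6.47 with antibiotics. All 3 arrays with antibiotics lay under the lowest re-fed array, and they were spread over 0.64 where the re-fed arrays were spread over 0.073. The means were 7.26 ± 0.036 and 6.75 ± 0.33 (SD, n = 3 per group), a difference of -0.50 (SE 0.16, 95% interval -0.85 to -0.16), or a 1.42-fold lower level. It was the member with the smallest p, and it did not pass over all genes (limma, adjusted p = 0.258). The common run gave -0.36 (adjusted p = 0.267), as did the fit without antibiotics replicate 3, and the difference remained below 0 whichever array was left out.

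Dusp6, often used as a readout of ERK activity, stood at 10.36, 10.41 and 10.12 without antibiotics and at 10.41, 10.41 and 9.68 with them. Here 5 of the arrays lay within 0.29 of each other, and antibiotics replicate 3 alone lay lower, by 0.73 below the mean of its 2 fellow replicates. The difference over 6 arrays was -0.13 (SE 0.19, 95% interval -0.56 to 0.31, adjusted p = 0.824). It turned to 0.12 without antibiotics replicate 3 and to 0.15 in the common run (adjusted p = 0.564).

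The Sprouty proteins act further up, where they block the step from receptors to Ras and Raf. Spry2 resembled Dusp6, with 8.04, 7.83 and 7.86 on the re-fed arrays against 8.03, 7.92 and 7.36 with antibiotics. The first 2 of the antibiotics arrays lay among the re-fed ones and the third lay 0.62 below their mean. The difference was -0.14 (SE 0.17, 95% interval -0.52 to 0.24, adjusted p = 0.775), and it was 0.067 without antibiotics replicate 3 and 0.13 in the common run.

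Spry4 showed a different arrangement. Its re-fed arrays stood at 7.11, 6.54 and 6.51, and its antibiotics arrays at 6.48, 6.29 and 6.09. The groups did not overlap, though only 0.034 parted the lowest re-fed array from the highest array with antibiotics, and re-fed replicate 1 stood well above the rest. The means of 6.72 ± 0.34 and 6.28 ± 0.20 (SD, n = 3 per group) gave a difference of -0.44 (SE 0.17, 95% interval -0.83 to -0.042, adjusted p = 0.353), a 1.35-fold lower level. Without re-fed replicate 1 the difference was -0.24, and the common run gave -0.14 (adjusted p = 0.542).

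RefSeq's table of sequences before the start site, on mouse assembly GRCm38.p6, was searched for the members with a chromosome left out. Outside that chromosome it held an entry for 4 of the 10 genes. The 250 bases before the annotated start of Dusp6, Spry2 and Fos are shown because these 3 shared antibiotics replicate 3 as their lowest array while their other arrays differed little. They lie at chr10:99262981-99263230 on the plus strand for Dusp6, chr14:105896820-105897069 on the minus strand for Spry2 and chr12:85473640-85473889 on the plus strand for Fos, and are written 5′ to 3′ in the direction of the gene. Capitals mark letters that match 1 of 6 motifs on either strand.
Dusp6: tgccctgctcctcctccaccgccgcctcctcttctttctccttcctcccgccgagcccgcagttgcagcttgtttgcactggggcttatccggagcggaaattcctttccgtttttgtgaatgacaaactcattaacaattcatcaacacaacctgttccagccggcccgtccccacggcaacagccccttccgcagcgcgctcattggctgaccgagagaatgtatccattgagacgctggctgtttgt
Spry2: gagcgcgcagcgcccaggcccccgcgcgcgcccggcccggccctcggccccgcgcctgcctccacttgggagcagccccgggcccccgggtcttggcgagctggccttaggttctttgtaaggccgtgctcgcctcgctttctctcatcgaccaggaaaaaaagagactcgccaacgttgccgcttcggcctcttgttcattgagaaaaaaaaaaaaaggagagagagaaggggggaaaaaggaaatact
Fos: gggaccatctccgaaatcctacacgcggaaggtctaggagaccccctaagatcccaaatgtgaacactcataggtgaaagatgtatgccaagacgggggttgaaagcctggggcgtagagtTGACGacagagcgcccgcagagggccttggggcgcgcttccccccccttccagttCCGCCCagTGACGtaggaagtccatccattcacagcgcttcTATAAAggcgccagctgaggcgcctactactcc
The first motif was CCGGAA, a longer form of the site bound by ETS factors such as ETV4 and ETV5. The shorter GGAA, which occurs in all 3 windows shown, was not searched for or marked. The second was TGANTCA, the site of AP-1, the dimer of FOS and JUN proteins. The third was TGACG, the start of the cyclic AMP response element bound by CREB. Next were the GC box GGGCGG of Sp-family factors and, for the position of the polymerase, the TATA box TATAAA. The last was the CArG box bound by SRF. Fos held 2 copies of TGACG, from -129 and from -66 relative to the start, a GC box from -74 on the opposite strand and a TATA box from -33. No motif of the 6 was matched in the windows of Dusp6 and Spry2, and CCGGAA, the AP-1 site and the CArG box were not matched in that of Fos. This says only that these letters are not there. Bases further from the start than these 250 were not searched, so nothing is said about motifs there. Among 32851 such windows, 12.0% held CCGGAA, 6.75% the AP-1 site, 17.8% TGACG, 32.7% the GC box, 12.4% the TATA box and 1.47% the CArG box. The bases G and C made up 56.4% of the Dusp6 window, 62.4% of the Spry2 window and 58.4% of the Fos window, beside a median of 52.4%.

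ETV4 and ETV5 are ETS-family transcription factors of the PEA3 group, whose genes are induced by ERK. Etv4 stood at 6.21, 5.96 and 6.09 on the re-fed arrays and at 6.30, 6.28 and 6.46 with antibiotics. The groups did not overlap, with 0.070 between the highest re-fed array and the lowest with antibiotics. The difference was 0.26 (SE 0.11, 95% interval 0.011 to 0.51, adjusted p = 0.377), a 1.20-fold higher level. The common run gave 0.27 (adjusted p = 0.250), and the value lay between 0.20 and 0.32 when any 1 array was left out.

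Etv5 stood at 5.86, 6.31 and 6.17 without antibiotics and at 6.29, 6.06 and 6.91 with them. Antibiotics replicate 3 lay above the other 5 arrays, the reverse of its place in Dusp6 and Spry2, and re-fed replicate 1 lay below them. The difference of 0.31 (SE 0.21, 95% interval -0.16 to 0.78, adjusted p = 0.576) was 0.062 without antibiotics replicate 3 and -0.066 in the common run (adjusted p = 0.810). Etv5 is the 1 member with 2 probe sets. The other, with a mean of 6.10 where the one used has 6.27, gave a difference of 0.080, and its arrays lay within 0.38 of each other. Both factors lay near the floor for dim signal.

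**Figure D2:**
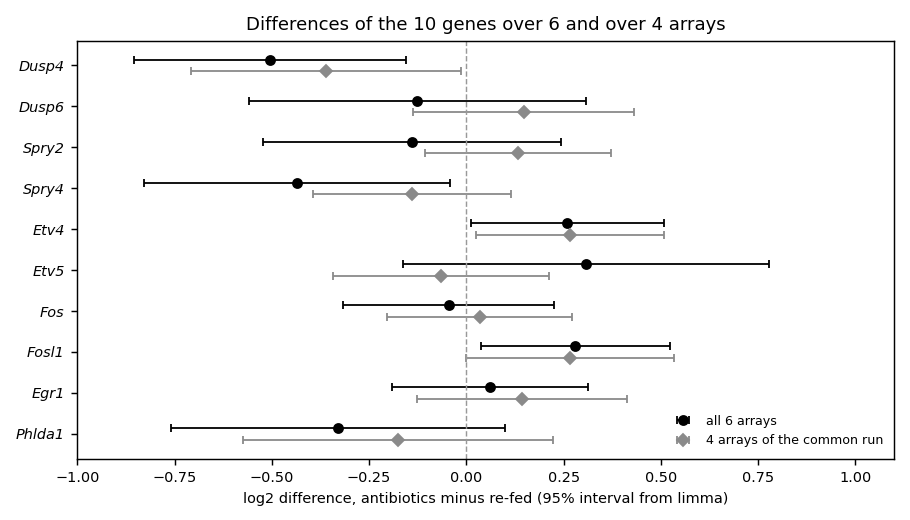
Log2 difference of each gene, antibiotics minus re-fed (horizontal axis), with its 95% interval from limma, over all 6 arrays (black circles) and over the 4 arrays of the common run (grey diamonds). Over 6 arrays the intervals of Dusp4, Spry4, Etv4 and Fosl1 leave out 0; over 4 arrays those of Dusp4 and Etv4 do. The points of Dusp6, Spry2, Etv5 and Fos lie on opposite sides of 0.

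The immediate-early transcription factors Fos and Egr1 differed little. FOS joins JUN proteins in the AP-1 factor, and EGR1 is a zinc finger factor whose gene is induced through SRF and its ERK-dependent partners. Fos stood at 11.67, 11.79 and 11.73 on the re-fed arrays and at 11.76, 11.83 and 11.46 with antibiotics. Antibiotics replicate 3 was again the lowest array, and the other 2 lay within or just above the re-fed range. The difference was -0.046 (SE 0.12, 95% interval -0.32 to 0.23, adjusted p = 0.906), and 0.065 without antibiotics replicate 3. Egr1 stood at 11.29, 11.13 and 11.06 without and at 11.12, 11.35 and 11.19 with antibiotics, so the groups overlapped and all 6 arrays lay within 0.30. Its difference was 0.061 (SE 0.11, 95% interval -0.19 to 0.31, adjusted p = 0.858), and 0.14 in the common run (95% interval -0.13 to 0.41, limma adjusted p = 0.560). Over all 6 arrays the intervals of Fos and Egr1 reach no further than -0.32 and 0.31.

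Fosl1 encodes FRA1, an AP-1 subunit that appears later than FOS and whose protein ERK stabilises. It stood at 6.60, 6.57 and 6.45 on the re-fed arrays and at 6.68, 6.87 and 6.91 with antibiotics. All arrays with antibiotics lay above all re-fed ones, by 0.080 at the nearest. The means of 6.54 ± 0.080 and 6.82 ± 0.12 (SD, n = 3 per group) differed by 0.28 (SE 0.11, 95% interval 0.037 to 0.52, adjusted p = 0.342), a 1.21-fold higher level. The common run gave 0.27 (adjusted p = 0.289), and leaving out any 1 array gave 0.23 to 0.35.

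Phlda1, a pleckstrin-homology-like protein whose transcript follows ERK activity and is known from cells of the crypt base, stood at 7.85, 7.54 and 6.99 on the re-fed arrays. With antibiotics it stood at 7.08, 7.10 and 7.21. The re-fed arrays were spread over 0.86 and enclosed the antibiotics arrays, which lay within 0.12 of each other. The difference was -0.33 (SE 0.19, 95% interval -0.76 to 0.098, adjusted p = 0.502). It was -0.14 without re-fed replicate 1, -0.57 without re-fed replicate 3 and -0.18 in the common run.

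Set side by side, the 10 genes had no common order of arrays. Antibiotics replicate 3 was the lowest array for 5 of them (Dusp4, Dusp6, Spry2, Spry4 and Fos, the 4 feedback inhibitors among them) and the highest for 3 (Etv4, Etv5 and Fosl1, transcription factors). It was the lowest in 26.1% and the highest in 22.7% of all genes tested. Re-fed replicate 1 was the highest array for Spry2, Spry4 and Phlda1, and re-fed replicate 3 the lowest for Fosl1, Egr1 and Phlda1. The arrays with antibiotics were spread wider than the re-fed ones for 6 genes and less wide for 4. Within the common run 6 of the 10 had groups that did not overlap, where 50.6% of all genes tested did. The median difference of the 10 was 0.083 there and 0.066 without antibiotics replicate 3, above 0 in both, beside 0.012 over all genes tested in the common run and 0.011 without that array.

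**Figure D3:**
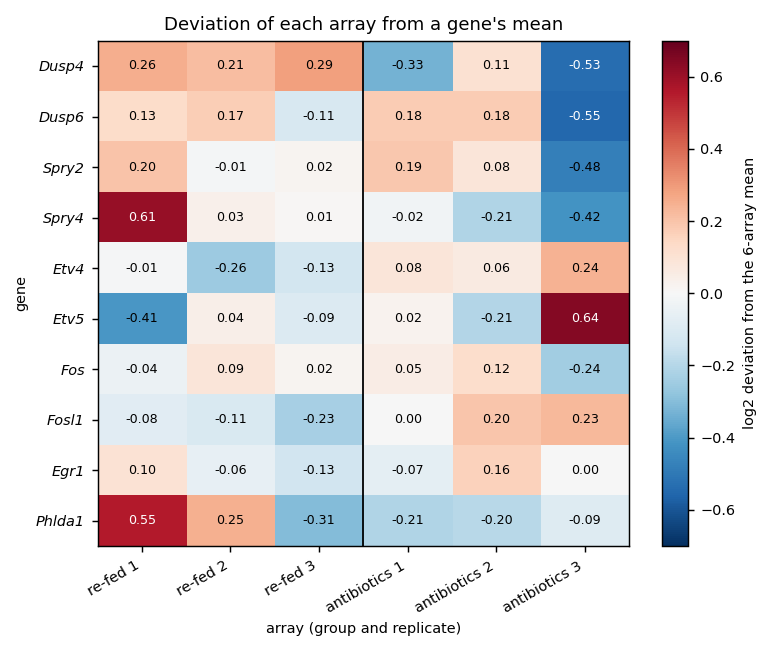
Deviation of each array (columns, by group and replicate) from the 6-array mean of each gene (rows), in log2 units, red above and blue below the mean. Antibiotics replicate 3 is the lowest array, and blue, for Dusp4, Dusp6, Spry2, Spry4 and Fos. It is the highest, and red, for Etv4, Etv5 and Fosl1. Re-fed replicate 1 is the highest, and red, for Spry2, Spry4 and Phlda1.

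Among the components of the cascade itself, 17 of 23 listed genes were tested and the other 6 were not analysed here. None passed, and 3 had an unadjusted p under 0.05, 2 lower and 1 higher, where 12.6% of all genes tested had such a p. Map2k1, which encodes 1 of the MEK kinases, stood between 10.63 and 10.80 on the re-fed arrays and between 10.31 and 10.44 with antibiotics (-0.33, SE 0.10, adjusted p = 0.260). Map2k2, the gene of the other MEK kinase, lay the opposite way, between 9.52 and 9.62 without and 9.72 and 9.87 with antibiotics (0.24, SE 0.10, adjusted p = 0.371). Neither pair of groups overlapped. Rps6ka3, a ribosomal S6 kinase that ERK activates, differed by -0.34 (SE 0.11, adjusted p = 0.264) and Mknk2, a kinase of the translation factor eIF4E that is also an ERK substrate, by -0.24 (SE 0.11, adjusted p = 0.401), again without overlap. In the common run these 4 differed by -0.39, 0.29, -0.37 and -0.17, and with the deposited scaling by -0.52, 0.065, -0.52 and -0.42. The median over the 17 genes was -0.088, with 12 below 0. Groups did not overlap for 19.6% of all genes tested and for 5 of the 17.

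Other brakes on receptor, Ras or MAP kinase signalling numbered 21, of which 19 were tested and 2 were dim. None passed, and 3 had an unadjusted p under 0.05, 1 higher and 2 lower, where 12.6% of all genes tested had such a p. The median of the 19 was 0.015, with 10 above 0 and 9 below. Groups did not overlap for 19.6% of all genes tested and for 1 of the 19. That gene was Lrig3, a leucine-rich repeat membrane protein, at 9.00 to 9.09 on the re-fed arrays and 9.19 to 9.57 with antibiotics (0.36, SE 0.12, adjusted p = 0.278). Its relative Lrig1, which lowers ErbB receptor levels, differed by 0.31 (SE 0.14, adjusted p = 0.418), but by 0.18 without re-fed replicate 3 and by 0.12 with the deposited scaling, which gave 0.16 for Lrig3. Errfi1, an inhibitor of the EGF receptor kinase that is itself induced by the receptor, stood at 11.93, 11.87 and 11.60 without and 11.50, 11.67 and 11.29 with antibiotics (-0.31, SE 0.13, adjusted p = 0.380). Dusp3, a further dual-specificity phosphatase, differed by -0.37 (SE 0.15, adjusted p = 0.357). In the common run Lrig3 differed by 0.26, Lrig1 by 0.25, Errfi1 by -0.15 and Dusp3 by -0.30, and with array weights Lrig3 by 0.22, Lrig1 by 0.17 and Dusp3 by -0.18.

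The 31 other immediate-early genes were all tested, and none passed. An unadjusted p under 0.05 was reached by 12.6% of all genes tested and here by 3 higher and 4 lower genes. The differences of the 31 were centred on 0 (median 0.0040, 16 above and 15 below), but ran from -0.79 to 0.75. Groups did not overlap for 19.6% of all genes tested and for 10 of the 31, 5 in each direction. The 4 with the smallest p all lay lower with antibiotics. Gadd45a, a growth-arrest gene induced by DNA damage and stress, stood at 9.44, 9.27 and 9.15 on the re-fed arrays and 8.27, 8.69 and 8.53 with antibiotics. The gap of 0.47 between the groups exceeded the spread within either, the difference was -0.79 (SE 0.13, adjusted p = 0.0757) and the level 1.73-fold lower. It passed when more dim genes were left out (adjusted p = 0.0452), with the trend and robust settings of eBayes (adjusted p = 0.0417) and with array weights (adjusted p = 0.00352). It did not pass in the other 11 alternatives, where adjusted p ran from 0.0564 with the deposited scaling to 0.300 without re-fed replicate 2, with 0.0823 in the common run, 0.167 with no filter and 0.200 with the replicate block. Plk3, a polo-like kinase of the stress response, stood between 11.48 and 11.68 without and 10.68 and 11.25 with antibiotics (-0.65, SE 0.15, adjusted p = 0.162). Csrnp1, a nuclear protein induced by AXIN1, differed by -0.49 (SE 0.11, adjusted p = 0.149) and the small GTPase Rhob by -0.45 (SE 0.13, adjusted p = 0.250). Both had groups that did not overlap. The common run gave -0.73 for Gadd45a, -0.57 for Plk3, -0.37 for Csrnp1 and -0.35 for Rhob.

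The largest difference in the other direction, named after its values were seen, was that of Ccn1, a matricellular protein. It stood at 8.76, 8.72 and 7.63 on the re-fed arrays and 9.22, 9.13 and 9.01 with antibiotics (0.75, SE 0.26, adjusted p = 0.296). Re-fed replicate 3 alone lay more than a log2 unit under the others. Nr4a1, an orphan nuclear receptor, had the same low array, with 10.69, 10.56 and 9.02 on the re-fed arrays and 10.65 to 10.72 with antibiotics, and was also named after its values were seen. The mean level of the 31 genes was 9.54, 9.50 and 9.26 on the re-fed arrays and 9.42, 9.53 and 9.29 with antibiotics, so that 1 array of each group lay low. In the common run, where re-fed replicate 3 is 1 of 2 controls, 21 of the 31 lay above 0 with a median of 0.13.

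Among 15 other transcripts listed by name as ERK targets, not all of them particular to ERK, 12 were tested and 3 were dim. None passed. An unadjusted p under 0.05 was found for 2 higher and 2 lower genes, where 12.6% of all genes tested had one. Groups did not overlap for 19.6% of all genes tested and for 4 of the 12, 2 lower and 2 higher. Emp1, a membrane protein, stood at 12.16, 12.32 and 12.57 on the re-fed arrays and 11.31, 12.04 and 11.06 with antibiotics, so that antibiotics replicate 2 came close to the re-fed arrays (-0.88, adjusted p = 0.196). Epha2, an ephrin receptor whose gene ERK induces, stood at 9.31, 8.89 and 8.80 against 8.69, 8.55 and 8.31 (-0.48, SE 0.16, adjusted p = 0.273), with -0.23 in the common run. Phlda3, a relative of Phlda1 that p53 induces, lay the other way from it, between 5.95 and 6.26 without and 6.30 and 6.81 with antibiotics (0.44, SE 0.15, adjusted p = 0.290). Hmga2, a chromatin protein, differed by 0.31 (SE 0.14, adjusted p = 0.387), but by 0.19 without re-fed replicate 1 and 0.20 with the deposited scaling. Without antibiotics replicate 3, Phlda3 differed by 0.29. In the common run Emp1 differed by -0.77, Phlda3 by 0.26 and Hmga2 by 0.24, and with array weights Epha2 differed by -0.27, Phlda3 by 0.23 and Hmga2 by 0.20. The median of the 12 genes was -0.071.

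**Figure D4:**
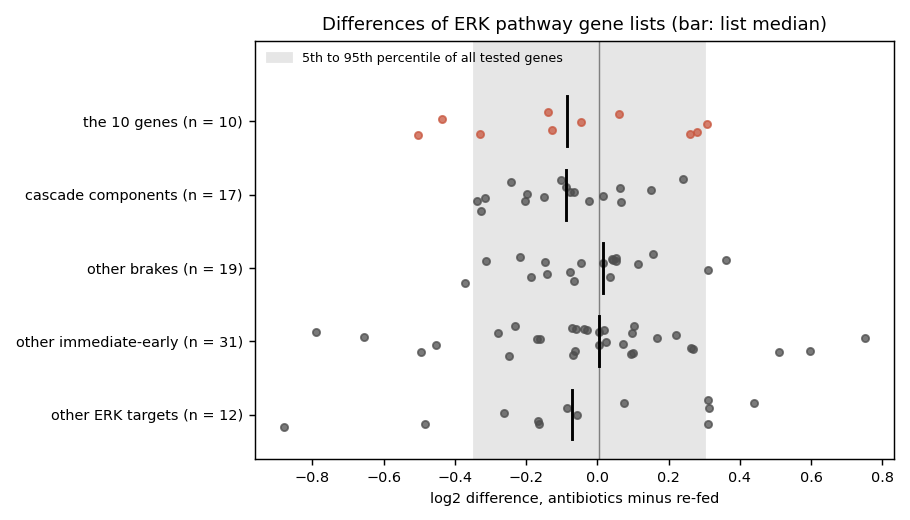
Log2 differences, antibiotics minus re-fed (horizontal axis), of the 10 genes (red) and of the tested genes of 4 wider lists (grey), each point a gene and each black bar a list's median; points are shifted up or down at random to be seen. The grey band spans the 5th to the 95th percentile of all genes tested, from -0.35 to 0.30. Of the 10 genes 3 lie outside it, of the cascade components 0, of the other brakes 3, of the other immediate-early genes 7 and of the other ERK targets 6.

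Genes that move with handling, and markers of other cells, were read beside these values. Of 11 heat shock genes 10 were measured, none passed or had an unadjusted p under 0.05, and their mean level was 9.02, 9.29 and 9.03 on the re-fed arrays and 9.03, 9.15 and 8.95 with antibiotics. Antibiotics replicate 3 was the lowest array for 4 of the 10 and the highest for 2, beside the 26.1% and 22.7% of all genes tested. Its distance from the mean of antibiotics replicates 1 and 2 ran from -1.26 for Hspa1a to 0.66 for Hspe1. Both genes were named after their values were seen. The part of handling in the values of Dusp6, Spry2 and Fos on that array was not tested. Of 13 leukocyte genes measured 9 were dim, and 0 of the other 4 had an unadjusted p under 0.05. The mean level of all 13 was 5.50 to 5.54 on the re-fed arrays and 5.54 to 5.57 with antibiotics. Of 13 stromal and endothelial genes 6 were dim, and the mean level of all 13 was 5.80 to 5.93 and 5.81 to 5.94. Of the 7 tested 6 lay above 0 and 1 below (median 0.14), none passed, and 1 had an unadjusted p under 0.05. This was Pecam1, an endothelial adhesion protein named after its values were seen, at 5.73, 6.22 and 6.45 against 5.73, 5.64 and 5.71 (-0.44, adjusted p = 0.337, and -0.65 with adjusted p = 0.0711 in the common run). Of 5 genes of enteric neurons and glia 4 were dim, with a mean level over all 5 of 5.41 to 5.54 and 5.47 to 5.57. Of 5 muscle genes 3 were dim, with a mean level over all 5 of 5.73 to 5.94 and 5.77 to 5.91. The 1 gene of the former list and the 2 of the latter that were tested had no unadjusted p under 0.05. The part of such cells in the values was not tested. In sorted bulk samples, fewer cells of a kind and less RNA per cell cannot be told apart.

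The genes whose course over the 6 arrays was most like the mean standardised course of the 10 were Mbd2 (Pearson's r = 0.989), Smg6 (0.987), Uap1l1 (0.984), Hcst (0.981) and Cx3cr1 (0.981). With 6 arrays and 12071 genes to choose from, such values describe these arrays and carry no test. That mean course was high in re-fed replicate 1 and antibiotics replicate 2 (0.44 and 0.33 SD units) and low in re-fed replicate 3 and antibiotics replicate 3 (-0.37 and -0.42), and so did not follow the groups. The 5 genes themselves differed between the groups by -0.058 to -0.0071, with adjusted p from 0.917 to 0.988.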

How the data were processed

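Total RNA of 6 samples was hybridised to Affymetrix arrays, 1 per sample. The authors deposited log2 expression values of 35557 probe sets, made with RMA according to the submitters' processing notes; neither version nor annotation is given in the sources used here. Groups and replicate numbers came from the sample titles. Genes came from the platform table: 21789 probe sets name 1 gene, 1621 several, and 12147 are unnamed here. Because array medians differ, the values of the 23410 probe sets with a gene were quantile normalised. Each of 19938 genes kept its brightest probe set, and the 12071 with a mean of at least 5.81 (the 40th percentile of probe sets) were compared by two-sided moderated tests in limma 3.58.1 under R 4.3.3 (functions lmFit and eBayes), with Benjamini-Hochberg adjustment over all of them and a threshold of 0.05. RMA gives no detection call, and the number of arrays limits precision. Each error is an SD over 3 arrays or the moderated standard error of a difference.

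The members and the lists were chosen with earlier results of these data known. Named were all 10 members, up to 4 genes of each wider pathway list with the smallest p, Epcam, Ptprc and the 5 genes most like the members' mean course; others are marked. Alternatives were the deposited scaling, no filter or a stricter one (60th percentile), array weights, trend and robust settings, the 4 arrays of the common run, the replicate number as a block, leaving out each array and the mean of a gene's probe sets. The code was run on simulated data with changes larger than those of the 10 genes and no odd arrays. That run does not give the power or error rate for these data. Coordinates are given only with RefSeq's sequences, since no build is named for the values. The labels call the samples biological replicates.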

Additional observations from a re-analysis of the deposited data

How the results depend on the processing

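Over the 14 alternatives the 10 genes gave 136 values, since the stricter filter tested 6 of them and left out Spry4, Etv4, Etv5 and Fosl1. Of the values, 124 kept their sign and their side of the threshold, 11 changed sign and 1, that of Dusp4 with array weights (-0.53, adjusted p = 0.0198), came to pass. Genes called numbered 7, and 45 with the deposited scaling, 2 with no filter, 43 with the stricter filter, 1169 with array weights, 43 with trend and robust settings, 54 in the common run, and 0 (without antibiotics replicate 1) to 11 (without re-fed replicate 3) when 1 array was left out. Where 0 were called, limma gave 1040 genes with an unadjusted p under 0.05. The share of all genes with such a p ran from 3.84% (deposited scaling) to 29.3% (array weights). Members with such a p numbered 4 in the main fit, with no filter and with the mean over probe sets. They numbered 3 with trend and robust settings, and 2 with array weights, in the common run and with the replicate block. The deposited scaling gave 1, the stricter filter 1 of 6 tested, and leaving out 1 array 1 to 3. Of the 10 genes, 1 was called with array weights and 0 elsewhere. Their median, -0.086, was -0.23 with the deposited scaling, which moves the median of all genes tested to -0.12, and 0.044 with array weights, 0.083 in the common run and -0.17 to 0.066 with 1 array left out, above 0 only without antibiotics replicate 3. With the deposited scaling Egr1 was at -0.092. With array weights Dusp6 was at 0.058, Spry2 at 0.10, Mbd2 at 0.0073, Smg6 at 0.046, Uap1l1 at 0.091 and Hcst at 0.096. Map2k1, Rps6ka3, Gadd45a, Csrnp1, Plk3, Rhob and Emp1 passed there, with adjusted p from 0.00352 to 0.0269. In the common run Dusp6 was at 0.15, Spry2 at 0.13, Etv5 at -0.066, Fos at 0.034, Epcam at 0.048, Mbd2 at 0.079, Smg6 at 0.13, Uap1l1 at 0.23, Hcst at 0.29 and Cx3cr1 at 0.068. With 1 array left out, Dusp6 ran from -0.25 to 0.12, Spry2 from -0.27 to 0.067 and Fos from -0.12 to 0.065, above 0 only without antibiotics replicate 3, and Egr1 from -0.0046 (without antibiotics replicate 2) to 0.13. Epcam ran from -0.075 to 0.026, Mbd2 from -0.098 to 0.027, Smg6 from -0.069 to 0.066, Uap1l1 from -0.13 to 0.13, Hcst from -0.21 to 0.14 and Cx3cr1 from -0.083 to 0.024. The causes of these changes were not tested, beyond the fewer arrays or genes that a setting uses. With the replicate block 7 genes and 0 of the 10 passed. The labels do not say whether the numbers pair the samples. Deviations of same-numbered arrays from their group means correlated at 0.021, -0.034 and -0.22, and no array correlated best with its own number. These values cannot decide the matter, because an odd array shifts the deviations of its whole group.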
